A study of Mus musculus with 106 samples.

Results

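Metabotropic glutamate receptors are G protein-coupled receptors that sense glutamate at and around synapses. The genes followed here encode 6 of them: *Grm5* of group I, *Grm2* and *Grm3* of group II, and *Grm4*, *Grm7* and *Grm8* of group III. They were chosen by name and make up 6 of the 55401 mouse genes in the deposited count table. Group I receptors couple to Gq, phospholipase C and calcium release, mostly on the postsynaptic side of excitatory synapses. Receptors of the other groups couple to Gi/o, lower cyclic AMP and damp transmitter release, mostly at presynaptic terminals. In the cerebellum, *Grm4* is known from the parallel fibre terminals of granule cells and *Grm2* from Golgi cells, while in the forebrain *Grm5* is known from striatal and cortical neurons and *Grm3* also from astrocytes.

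The study sequenced ribosome-bound mRNA from defined neuron classes of a Huntington's disease (HD) mouse. HD mice carried the Hdh Q7/Q200 knock-in on 1 allele, controls were Hdh Q7/Q7 littermates, and both were on the 129S4 background and 9 months old. These mice carried the RiboTag allele, in which Cre puts an HA tag on the ribosomal protein Rpl22, together with a Gad2-, PV- or vGluT2-IRES-Cre driver, so that immunoprecipitates (IPs) held mRNA from whichever cells had expressed that Cre; for PV, duplicate IPs of a mouse were pooled, and the SST+ mice, given in the deposit as HD and littermate control RiboTag samples, are not described further. In the SST line the HD mice all had BR codes, whereas control mice had BR or Z codes, so a fit with BR controls alone was added. IPs and total RNA of the same homogenates came from 1 hemisphere, as cerebrum without olfactory bulb or as cerebellum.

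The 106 libraries were 67 IPs and 39 total RNA libraries from 24 control and 21 HD mice. In the cerebrum there were 6 control and 6 HD Gad2+ IPs, 6 and 5 PV+ IPs, 5 and 4 SST+ IPs, and 6 and 6 vGluT2+ IPs. In the cerebellum there were 6 control and 6 HD Gad2+ IPs, and 5 and 6 vGluT2+ IPs. Cerebral total RNA was compared with 9 libraries per genotype, 3 from each of the Gad2, PV and vGluT2 lines, and cerebellar total RNA with 7 per genotype, 3 from the Gad2 and 4 from the vGluT2 line. Library totals ran from 21905221 to 107753586 counts with a median of 35866726. The lowest count behind any value of a receptor was 24, for *Grm3* in 1 HD cerebellar vGluT2+ IP, and the highest was 41765, for *Grm4* in 1 control cerebellar vGluT2+ IP.

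The annotation placed all 6 receptor genes on GRCm38 as protein-coding genes. *Grm5* (ENSMUSG00000049583.15) lay on chromosome 7 at 87584168 to 88134907, plus strand, with 10247 exonic bases. *Grm2* (ENSMUSG00000023192.12) lay on chromosome 9 at 106643095 to 106656082, minus strand, with 4894 exonic bases, and *Grm3* (ENSMUSG00000003974.6) on chromosome 5 at 9485541 to 9725170, minus strand, with 3049. *Grm4* (ENSMUSG00000063239.17) lay on chromosome 17 at 27422387 to 27521403, minus strand, with 5977 exonic bases. The remaining group III genes shared chromosome 6: *Grm7* (ENSMUSG00000056755.13) at 110645581 to 111567230, plus strand, with 5886 exonic bases, and *Grm8* (ENSMUSG00000024211.15) at 27275119 to 28135178, minus strand, with 9898. Exons overlapped another annotated gene at *Grm2* (470 bases, antisense Gm28111), *Grm7* (130 bases, antisense Gm20387) and *Grm8* (96 bases, Mir592 on the same strand). The longest transcripts differed in base composition, from 41.9% GC for *Grm8* and 42.5% for *Grm5* through 47.2% for *Grm7* and 47.6% for *Grm3* to 56.9% for *Grm2* and 61.7% for *Grm4*. All 6 genes passed the filter on low counts in all 24 comparisons.

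The cell classes were checked against marker genes by comparing each IP with total RNA of its region, as log2 fold changes. The 3 GABAergic markers were all higher in Gad2+ IPs of the cerebrum (median 1.92), in PV+ IPs (1.49), SST+ IPs (1.17) and cerebellar Gad2+ IPs (1.91), and all 3 were lower in cerebral (-2.88) and cerebellar (-2.05) vGluT2+ IPs. All 4 PV markers were higher in PV+ IPs (median 2.36) and all 4 SST markers were higher in SST+ IPs (2.26). *Slc17a6*, which encodes vGluT2, was higher in vGluT2+ IPs of the cerebrum (0.98) and cerebellum (1.57), but also in PV+ (1.20) and SST+ IPs (1.09), so *Slc17a6* was not confined to the vGluT2+ classes. In the cerebellum, all 6 granule cell markers were higher in vGluT2+ IPs (median 1.04) and lower in Gad2+ IPs (-2.11), where all 4 Golgi (1.66) and all 5 Purkinje markers were higher. Astrocyte markers were lower in IPs, 9 of 9 in cerebral Gad2+ (median -3.05), cerebral vGluT2+ (-3.49), cerebellar Gad2+ (-2.16) and cerebellar vGluT2+ IPs (-3.25), and 7 of 9 in PV+ (-1.72) and SST+ IPs (-1.50).

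**Figure D1:**
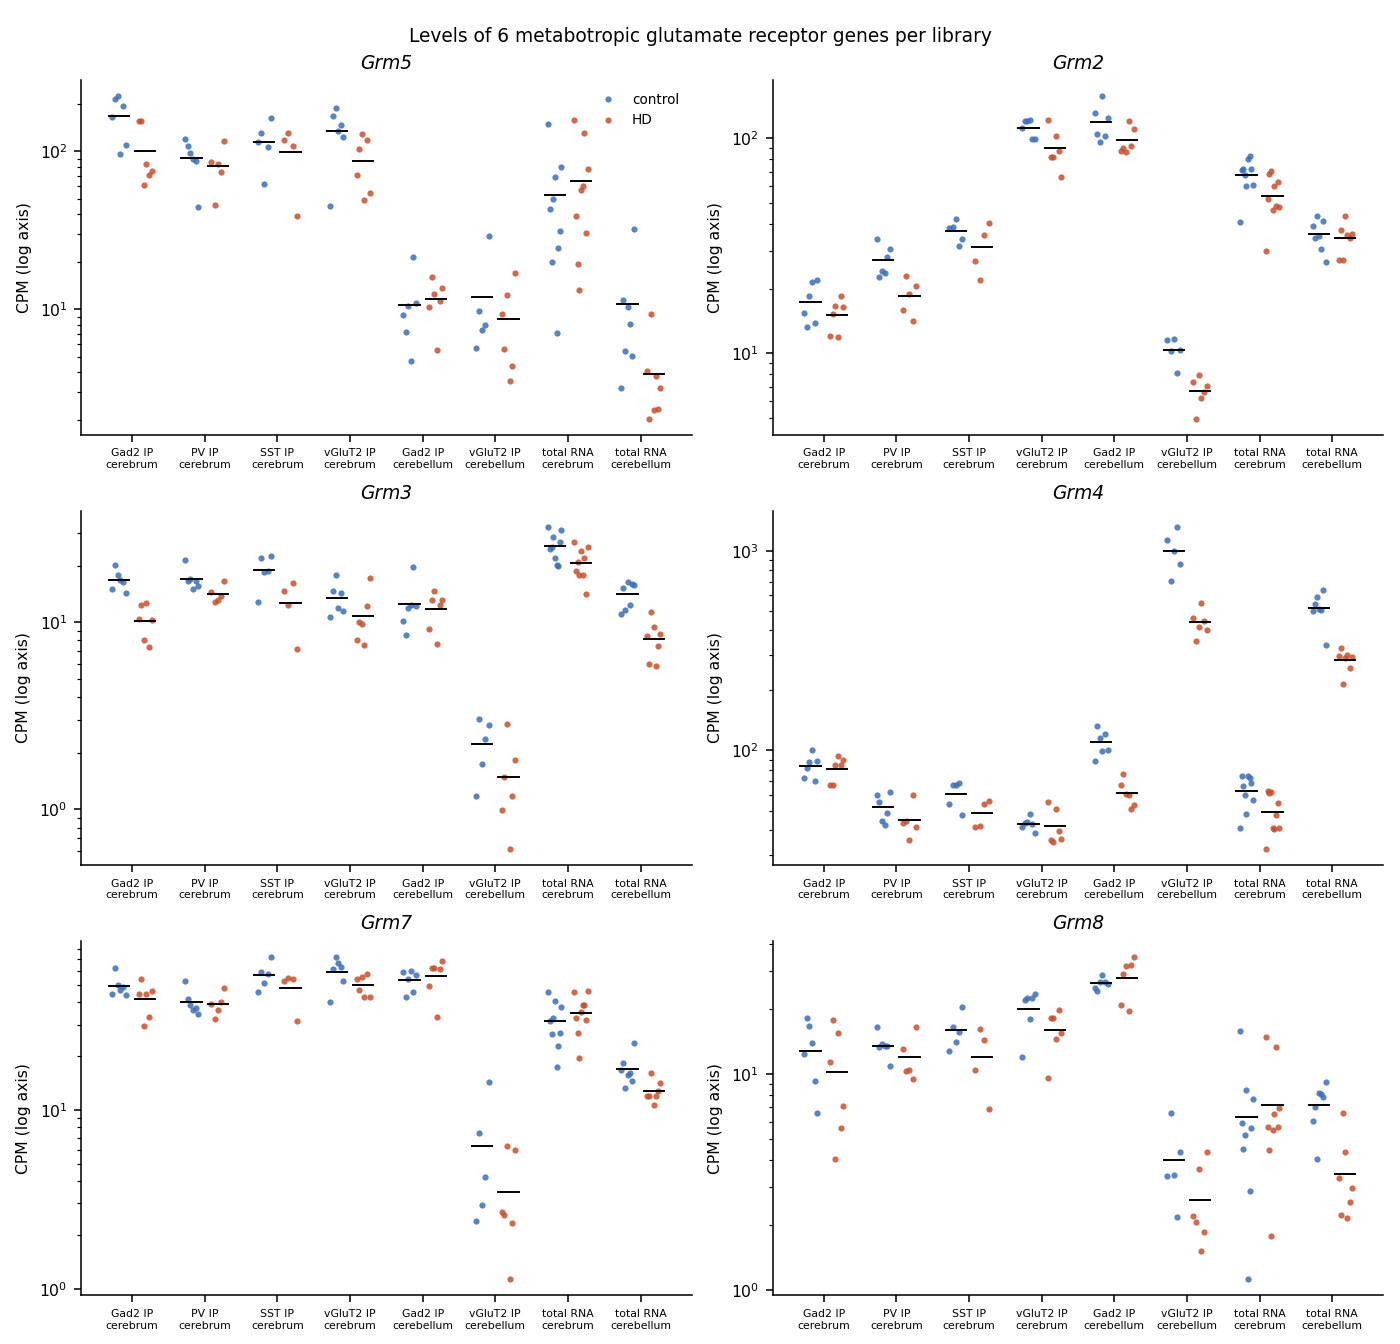
Normalised level (CPM, log axis) of each receptor gene in every library of each cell class and of total RNA, with control and HD libraries side by side and bars for the group means. *Grm4* is highest in cerebellar vGluT2+ IPs, where its control libraries lie between 704 and 1320 CPM, above those of every other class.

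The first question was where each receptor is expressed. In control IPs, compared per kilobase of exon because the genes differ in length, the leading receptor differed between cell classes. Cerebellar vGluT2+ IPs were led by *Grm4* at 168 ± 40.1 CPM per kb (SD, n = 5), apart from *Grm2* (2.13), *Grm5* (1.17), *Grm7* (1.06), *Grm3* (0.734) and *Grm8* (0.402), whose neighbours in that order overlapped. Cerebellar Gad2+ IPs were led by *Grm2* (24.4 ± 4.67 CPM per kb, n = 6) and *Grm4* (18.3 ± 2.7), which overlapped, followed by *Grm7* (9.03), *Grm3* (4.09), *Grm8* (2.65) and *Grm5* (1.04), of which *Grm3* and *Grm8* overlapped. Golgi and Purkinje markers were enriched in these IPs, which also held granule cell markers, at a summed 869 to 1719 CPM (median 1222) against 8685 to 11879 (median 11303) in cerebellar vGluT2+ controls; *Grm4* was at 110 and 1002 CPM in the 2 classes, and the part of granule cell RNA in its Gad2+ level was not tested.

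The cerebral classes were ordered differently. Cerebral Gad2+ IPs were led by *Grm5* (16.3 ± 5.21 CPM per kb, n = 6) and *Grm4* (14 ± 1.91), which overlapped, then by *Grm7* (8.41), *Grm3* (5.51), *Grm2* (3.56) and *Grm8* (1.29), each apart from the one before. Cerebral vGluT2+ IPs were led by *Grm2* alone (23 ± 2.13 CPM per kb, n = 6), with *Grm5* (13.1), *Grm7* (10.1) and *Grm4* (7.2) overlapping in turn, and *Grm3* (4.43) and *Grm8* (2.03) each apart below them. In PV+ IPs *Grm5* (8.87 CPM per kb), *Grm4* (8.72), *Grm7* (6.82), *Grm3* (5.6) and *Grm2* (5.56) did not separate from their neighbours, and in SST+ IPs neither did *Grm5* (11.3), *Grm4* (10.2), *Grm7* (9.7), *Grm2* (7.55) and *Grm3* (6.22). *Grm8* was lowest and apart in both, at 1.36 and 1.61 CPM per kb. Total RNA was led by *Grm2* (13.8 CPM per kb) and *Grm4* (10.5) in the cerebrum, where all neighbours overlapped and *Grm3* (8.41) came next. In the cerebellum it was led by *Grm4* (86.3 ± 15.6, n = 7), apart from the rest. With the longest transcript as length, 14 of 48 ranks moved. *Grm2* then overlapped *Grm5* in cerebral vGluT2+ IPs (21.2 to 25.9 and 5.56 to 23.3 CPM per kb). The lowest receptor, *Grm8*, overlapped its neighbour in cerebral Gad2+, SST+ and cerebral vGluT2+ IPs. Conversely, *Grm7* in PV+ IPs and cerebellar total RNA and *Grm4* in SST+ IPs became apart from the next lower receptor.

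Each receptor was then compared between IP and total RNA of its region in edgeR, with 1 test per gene over all protein-coding genes, Benjamini-Hochberg (BH) adjustment and a call at an adjusted p of 0.05. Because most genes differ between an IP and bulk tissue, a call in itself says little. In cerebral Gad2+ IPs all 6 receptors were called, 4 higher and 2 lower, beside 63.1% of all 14779 genes tested. For cerebral vGluT2+ IPs it was also 6, 4 higher and 2 lower, beside 63.8%. PV+ IPs gave 4 calls, 2 in each direction, beside 73.2%, and SST+ IPs 5, 3 of them higher, beside 64.9%. In the cerebellum 5 receptors were called in Gad2+ IPs, 4 of them higher, beside 67.3%, and 5 in vGluT2+ IPs, 1 of them higher, beside 69.9%. With 6 genes these shares lay near the background, and the information is in which receptors moved in which direction.

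Control IPs were also compared with each other in 1 edgeR fit, again with a test over all 14571 genes. Between cerebellar vGluT2+ and Gad2+ IPs 5 of 6 receptors were called (1 higher, 4 lower), beside 58% of all genes. Between the cerebellum and cerebrum all 6 were called in vGluT2+ IPs (1 higher) beside 63.2%, and 5 in Gad2+ IPs (3 higher) beside 55.2%. Fewer receptors were called between cerebral classes: 3 were called between vGluT2+ and Gad2+ IPs beside 30.5%, 3 between PV+ and Gad2+ IPs beside 53.8%, and 1 between PV+ and SST+ IPs beside 15.1%. The median log2 fold change of the 6 receptors was -2.64 between the cerebellar classes and -2.98 between vGluT2+ cells of cerebellum and cerebrum, against 0.02 and -0.01 for all genes tested.

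*Grm5*, the group I receptor that drives Gq signalling at postsynaptic sites, was a cerebral gene in these cells. Its control level was 167 ± 53.4 CPM in cerebral Gad2+ IPs (SD, n = 6), 134 ± 49.6 in cerebral vGluT2+ (n = 6), 115 ± 36.9 in SST+ (n = 5) and 90.9 ± 25.6 in PV+ IPs (n = 6), then 11.9 ± 9.62 in cerebellar vGluT2+ (n = 5) and 10.7 ± 5.8 in cerebellar Gad2+ IPs (n = 6). Neighbours in this order overlapped except at the step from cerebrum to cerebellum, where the groups were apart. The lowest cerebral Gad2+ library had 96.3 CPM and the highest cerebellar Gad2+ library 21.5 CPM. Between the 2 groups the fitted log2 fold change was -3.98 (SE 0.391, edgeR adjusted p = 1.06e-10, lower in 6 of 6 cerebellar libraries).

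Against total RNA, *Grm5* was called higher in cerebral Gad2+ IPs, with a log2 fold change of 1.13 (edgeR adjusted p = 0.00849), though only 4 of 12 IPs lay above all 18 total RNA libraries. The call was absent when total RNA of the Gad2 line alone was used (0.83). The value was 0.92 in SST+ IPs and 0.86 in cerebral vGluT2+ IPs, both called, and 0.60 in PV+ IPs, not called. The SST+ call was absent with control libraries alone (1.17), and the vGluT2+ call without TMM (0.82), with same-line total RNA (0.79) and with the mouse as a block (1.09), while same-line total RNA (1.04) or the mouse as a block (1.28) gave a call in PV+ IPs. The SST+, vGluT2+ and PV+ values turned negative (-0.28, -0.08 and -0.52, the first and last called) once the GC balance of each library, described further on, was a covariate. In the cerebellum the log2 fold change was 0.79 in Gad2+ IPs, called, and 0.66 in vGluT2+ IPs, not called; the first was -0.08 with control libraries alone and not called without TMM (0.72) or with the covariate (0.13), and the other was -0.07 with the covariate and called with the mouse as a block (1.34).

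*Grm2*, a group II receptor that limits glutamate release at presynaptic terminals, had the widest split between classes among the group II genes. Control levels were 120 ± 22.9 CPM in cerebellar Gad2+ (n = 6) and 112 ± 10.4 in cerebral vGluT2+ IPs (n = 6), which overlapped. Then came 37 ± 4.13 in SST+ (n = 5) and 27.2 ± 4.49 in PV+ IPs (n = 6), also overlapping, and 17.4 ± 3.82 in cerebral Gad2+ (n = 6) and 10.4 ± 1.44 in cerebellar vGluT2+ IPs (n = 5), each apart from its neighbours. *Grm2* was therefore higher in vGluT2+ than in Gad2+ IPs in the cerebrum, and the reverse held in the cerebellum. Between cerebral vGluT2+ and Gad2+ IPs the log2 fold change was 2.70 (SE 0.141; edgeR adjusted p = 1.24e-16, higher in 6 of 6), and between cerebellar vGluT2+ and Gad2+ IPs it was -3.55 (SE 0.159; edgeR adjusted p = 4.61e-19, lower in 5 of 5).

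*Grm2* followed the same split against total RNA. In cerebellar Gad2+ IPs it ran from 86.5 to 157 CPM (median 104, n = 12), against 26.7 to 43.7 CPM (median 35.3, n = 14) in cerebellar total RNA. All IPs lay above all total RNA libraries, and the log2 fold change was 1.62 (edgeR adjusted p = 2.97e-14). In cerebellar vGluT2+ IPs it was -2.10, below total RNA in 11 of 11 libraries (edgeR adjusted p = 1.67e-14). It was 0.73 in cerebral vGluT2+ IPs, and it fell by 1.89 in cerebral Gad2+, by 1.35 in PV+ and by 0.77 in SST+ IPs, all called. *Grm2* was the receptor called between PV+ and SST+ IPs, at -0.45 (SE 0.139; edgeR adjusted p = 0.0235, below all SST+ controls in 5 of 6).

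*Grm3*, the group II receptor also known from astrocytes, was lowest in the cerebellar vGluT2+ class. Its control level was 19 ± 3.91 CPM in SST+ IPs (n = 5), 17.1 ± 2.28 in PV+ and 16.8 ± 2.08 in Gad2+ IPs of the cerebrum, 13.5 ± 2.67 in its vGluT2+ IPs and 12.5 ± 3.87 in Gad2+ IPs of the cerebellum (n = 6 each), with all neighbours overlapping. Between the Gad2+ classes it was called lower in the cerebellum (-0.44, SE 0.181; edgeR adjusted p = 0.0374). Cerebellar vGluT2+ IPs were apart from these, with 1.18, 3.04, 1.75, 2.37 and 2.84 CPM. *Grm3* was lower in IPs than in total RNA in every cerebral class, by log2 fold changes of -0.82 (Gad2+), -0.51 (PV+), -0.51 (SST+) and -0.95 (vGluT2+), all called, and by -2.57 in cerebellar vGluT2+ IPs, where 11 of 11 IPs lay below 14 of 14 total RNA libraries (edgeR adjusted p = 3.24e-12). In cerebellar Gad2+ IPs it was 0.17, not called, but with the mouse as a block it was 0.42 and called (edgeR adjusted p = 0.0406). The SST+ call was absent with total RNA of the SST line alone (-0.40), with control libraries alone (-0.36) and with the mouse as a block (-0.25). Astrocyte markers were lower in the same IPs, with medians from -1.50 to -3.49, and their part in the *Grm3* values was not tested.

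*Grm4*, the group III receptor that restrains release from parallel fibres, reached the highest level per kb of the 6 genes, in cerebellar vGluT2+ IPs. The control cerebellar vGluT2+ IPs held 1135, 704, 994, 1320 and 854 CPM. Next came 110 ± 16.1 CPM in cerebellar Gad2+ and 83.4 ± 11.4 in cerebral Gad2+ IPs (n = 6 each), which overlapped, and then SST+ (60.8 ± 9.5, n = 5), PV+ (52.1 ± 8.13, n = 6) and cerebral vGluT2+ IPs (43 ± 3.18, n = 6), which also overlapped in turn. The 2 vGluT2+ classes thus stood at opposite ends of the order. Between them the log2 fold change was 4.48 (SE 0.156; edgeR adjusted p = 3.83e-22, higher in 5 of 5 cerebellar libraries). Against cerebellar total RNA, *Grm4* was called higher in vGluT2+ IPs (0.78) and lower in Gad2+ IPs (-2.22, lower in 12 of 12). Against cerebral total RNA it was called higher in Gad2+ (0.58) and lower in vGluT2+ IPs (-0.39), and not called in PV+ (-0.13) or SST+ IPs (0.04). With the GC covariate the vGluT2+ call was absent (-0.14), the PV+ value was 0.15 and the SST+ value was called at 0.32.

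*Grm7*, a group III receptor of presynaptic release sites with low affinity for glutamate, was spread over all classes but 1. Control levels were 59.3 ± 11.3 CPM in cerebral vGluT2+, 57.1 ± 9.72 in SST+ (n = 5), 53.1 ± 7.21 in cerebellar Gad2+, 49.5 ± 6.84 in cerebral Gad2+ and 40.2 ± 6.53 in PV+ IPs (n = 6 in the others), and all neighbours overlapped. Cerebellar vGluT2+ IPs were apart, with 2.39, 7.44, 2.93, 4.24 and 14.3 CPM. *Grm8*, the third gene of the group, was highest in cerebellar Gad2+ IPs at 26.2 ± 1.55 CPM (n = 6), apart from cerebral vGluT2+ (20.1 ± 4.38, n = 6), SST+ (15.9 ± 2.93, n = 5), PV+ (13.5 ± 1.75, n = 6), cerebral Gad2+ (12.8 ± 4.38, n = 6) and cerebellar vGluT2+ IPs (3.98 ± 1.65, n = 5), which overlapped in turn. In cerebellar Gad2+ IPs both stood above total RNA in 12 of 12 libraries, by 1.89 for *Grm7* and 2.44 for *Grm8* (edgeR adjusted p = 3.37e-14 and 8.15e-12). In cerebellar vGluT2+ IPs they fell by 1.68 and 0.64, the latter not called with the mouse as a block (-0.46). In the 4 cerebral classes both were called higher than total RNA, *Grm7* by 0.32 to 0.73 and *Grm8* by 0.74 to 1.37. The *Grm7* call in PV+ IPs was absent without TMM (0.30), with control libraries alone (0.43) and with the mouse as a block (0.44), and with same-line total RNA neither gene was called in Gad2+ IPs (0.38 and 0.42). The *Grm8* call in cerebral Gad2+ IPs was also absent with the mouse as a block (0.74, edgeR adjusted p = 0.109). With the GC covariate, *Grm8* was not called in Gad2+ (0.15), PV+ (0.18) or SST+ IPs (0.24), and *Grm7* was not called in Gad2+ IPs (0.12) and was called lower in PV+ IPs (-0.15).

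The second question was what HD did to these receptors. *Grm4* fell in HD mice in vGluT2+ and Gad2+ IPs of the cerebellum and in cerebellar total RNA; the Gad2+ call held in 1 of 12 refits without 1 library and under 4 of 10 alternatives, and the total RNA call was absent with the replicate block and in the Gad2 line alone. For total RNA of the cerebellum, edgeR also called *Grm5*, *Grm3*, *Grm7* and *Grm8* lower, and all 4 calls were absent with the GC covariate, with the replicate block and in the Gad2 line alone. The replicate block joins HD and control libraries of the same number, which are not known to be pairs. Such pairs correlated at -0.82 to -0.02 in cerebellar total RNA of the Gad2 line and at -0.16 to 0.38 in that of the vGluT2 line. In cerebellar Gad2+ IPs they correlated at -0.19 to 0.51. In the 4 cerebral classes and in cerebral total RNA no receptor was called by edgeR.

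Read against all genes, 1 of 6 receptors was called in cerebellar vGluT2+ IPs beside 2.09% of 13487 genes, and 1 of 6 in cerebellar Gad2+ IPs beside 0.0142% of 14098. Total RNA of the cerebellum had 5 of 6 receptors called, all of them lower, beside 25.6% of 14477 genes. The counts were 0 of 6 in cerebral Gad2+ IPs (0.0279% of all genes), PV+ IPs (0.0408%), SST+ IPs (0%), cerebral vGluT2+ IPs (0%) and cerebral total RNA (0.215%) in edgeR. At an unadjusted p below 0.05 edgeR counted 2, 2, 1, 1 and 2 receptors there, and DESeq2 called 1, 0, 0, 0 and 0. For SST+ and cerebral vGluT2+ IPs, where edgeR called no gene at all, 216 and 1092 genes had an unadjusted p below 0.05 and DESeq2 called 2 and 25. The median log2 fold change of the 6 receptors was negative in all 8 comparisons: -0.30, -0.20, -0.31 and -0.27 in cerebral Gad2+, PV+, SST+ and vGluT2+ IPs, -0.05 and -0.60 in cerebellar Gad2+ and vGluT2+ IPs, and -0.03 and -0.82 in cerebral and cerebellar total RNA, against -0.01 to 0.02 for all genes tested. With the GC covariate they were -0.11 for cerebral vGluT2+ IPs, -0.11 for Gad2+ IPs of the cerebellum, -0.19 in cerebral and -0.42 in cerebellar total RNA. The PV+ median was -0.39 with the replicate block, and that of cerebellar total RNA -0.43 in the Gad2 line alone. These medians share mice where the same animals gave several libraries.

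**Figure D2:**
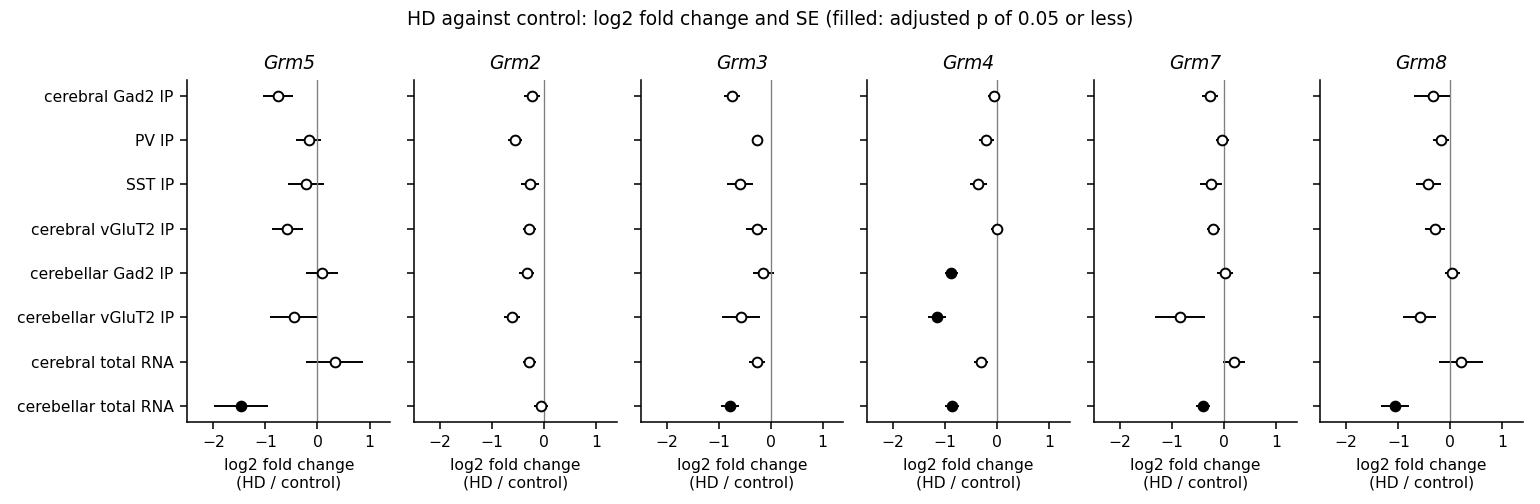
Log2 fold change of HD against control for each receptor gene in the 8 comparisons, with bars of 1 SE, and filled points for those called by edgeR. *Grm4* lies at -1.16 in cerebellar vGluT2+ IPs, -0.88 in cerebellar Gad2+ IPs and -0.87 in cerebellar total RNA, and near 0 in cerebral vGluT2+ IPs.

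*Grm4* in cerebellar vGluT2+ IPs carried the clearest difference. The HD libraries ran from 355 to 549 CPM (median 430, n = 6), against 1135, 704, 994, 1320 and 854 CPM in the controls. Every HD library lay below every control library. The log2 fold change was -1.16 (SE 0.171; edgeR adjusted p = 0.00288, lower in 6 of 6), and it was called in 11 of 11 refits that left out 1 library each. With the GC covariate, chosen after seeing the data, it was -1.29 (edgeR adjusted p = 0.000163; 5.03e-09 to 0.00315 over the 9 alternatives). The summed level of the granule cell markers was 8685 to 11879 CPM (median 11303) in control and 5622 to 8827 (median 7251) in HD libraries, led by *Cbln3* (4909 ± 656 and 2768 ± 215 CPM), and 2 of 6 fell, *Cbln3* by 0.80 and *Neurod1* by 0.86 on the log2 scale. None of the 6 markers was at 0, and their part in the *Grm4* value was not tested. Each IP pools ribosome-bound RNA of many cells, so a change in the mix of cells and a change per cell cannot be told apart. The study states that changes in transcription and in translation cannot be told apart either.

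In cerebellar Gad2+ IPs, in which Golgi and Purkinje markers were enriched, *Grm4* ran from 51.2 to 76.2 CPM in HD (median 60.1, n = 6) and from 88.8 to 133 CPM in control libraries (median 108, n = 6). The groups did not overlap. The log2 fold change was -0.88 (SE 0.127; edgeR adjusted p = 0.0378, lower in 6 of 6). The size was steady at -0.95 to -0.82 when any 1 library was left out, but the adjusted p was below 0.05 in 1 of 12 refits, without HD replicate 4 (0.0448). It was 0.0755, 0.103, 0.146, 0.11, 0.101 and 0.0948 without control replicates 1 to 6, and 0.181, 0.0585, 0.175, 0.168 and 0.166 without HD replicates 1, 2, 3, 5 and the re-sequenced 1. The call held under 4 of 10 alternatives, and edgeR gave 0.074 with DESeq2 size factors, 0.0999 with upper-quartile factors, 0.0871 with filterByExpr, 0.072 with all gene types, 0.166 with the re-sequenced libraries left out and 0.669 with the replicate block (adjusted p from 2.67e-06 to 0.669 over all alternatives). Granule cell markers summed to 869 to 1719 CPM (median 1222) in control and 610 to 1497 (median 1189) in HD libraries, 0 of 6 called by edgeR (1 at an unadjusted p below 0.05, 0 by DESeq2) with a median of -0.18; *Cbln3*, the top marker in controls (439 ± 97 CPM), was at -0.53. No marker was at 0, and their part in the value was not tested.

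In cerebellar total RNA, *Grm4* was 499, 538 and 588 CPM in control and 296, 327 and 216 CPM in HD mice of the Gad2 line, and 508, 503, 637 and 339 CPM in control and 291, 300, 258 and 295 CPM in HD mice of the vGluT2 line. HD and control libraries were apart in each line. The log2 fold change was -0.87 (SE 0.132; edgeR adjusted p = 0.00474, lower in 7 of 7), called in 14 of 14 refits without 1 library. Each line alone, fits added after seeing the data, gave -0.96 in the Gad2 line, where edgeR called no receptor, and -0.81 in the vGluT2 line (edgeR adjusted p = 0.00289). With the replicate number as a block the value was -0.85 and was not called (edgeR adjusted p = 0.118; 8.94e-07 to 1 over the alternatives). As said above, these numbers are not known to pair libraries. Granule markers summed to 4087 to 6452 CPM (median 4669) in control and 2949 to 4877 (median 3739) in HD libraries, with 1 of 6 called, *Cbln3* (-0.55, from 2288 ± 384 to 1565 ± 207 CPM), and no marker at 0; their part in the *Grm4* value was not tested.

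The cerebral classes gave no such difference in *Grm4*. HD libraries had 41.9 ± 8.76 CPM and controls 43 ± 3.18 in vGluT2+ IPs, a log2 fold change of 0.00 (SE 0.121), and 81.1 ± 11.4 and 83.4 ± 11.4 in Gad2+ IPs, -0.06 (SE 0.121). PV+, SST+ and total RNA values were -0.21, -0.36 and -0.31, none called by edgeR. The test of the difference between regions reached the threshold in vGluT2+ cells: the HD effect in the cerebrum minus that in the cerebellum was 1.15 (SE 0.22; edgeR adjusted p = 0.0126, the cerebellar libraries lower in 6 of 6 and the cerebral ones in 3 of 6). That was 1 of 6 receptors beside 0.316% of all genes. In Gad2+ cells the same difference was 0.81 (SE 0.184) and was not called by edgeR (adjusted p = 0.248), although DESeq2 gave 0.024 (0.024 to 0.66 over the alternatives).

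The other differences of HD effects held no called receptor. Between Gad2+ cells of the regions edgeR called 0 of 6 receptors beside 0% of genes (2 at an unadjusted p below 0.05, and 1 by DESeq2; over all genes 772 and 21). Between cerebral Gad2+ and vGluT2+ cells it called 0 of 6 beside 0% (0 at an unadjusted p below 0.05, 0 by DESeq2, against 218 and 1 over all genes), and between cerebellar vGluT2+ and Gad2+ cells 0 of 6 beside 0.107% (1 at an unadjusted p below 0.05, 0 by DESeq2). The *Grm4* effect was thus not shown to differ between the 2 cerebellar classes: their difference was -0.33 (SE 0.218; edgeR adjusted p = 0.795). HD libraries lay below all controls in 6 of 6 cases in either class.

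*Grm2* in cerebellar vGluT2+ IPs moved the same way without passing the threshold. HD libraries ran from 4.97 to 7.92 CPM (median 6.85, n = 6), against 11.6, 10.3, 11.7, 8.13 and 10.4 CPM in controls. The groups were apart, and the log2 fold change was -0.62 (SE 0.155; edgeR adjusted p = 0.0581, lower in 6 of 6). DESeq2 called it (adjusted p = 0.00692; 0.00692 to 0.123 over the alternatives), and so did edgeR with the GC covariate (0.0401), with all IP groups in 1 fit (0.00851) and without control replicate 4 (-0.71, adjusted p = 0.0418). *Grm2* is known from Golgi cells, and all 4 Golgi markers were depleted from these IPs against total RNA (median -1.36). Golgi marker sums were 66.9 to 153 CPM (median 85.5) in control and 58.4 to 138 (median 79.4) in HD vGluT2+ libraries, led by *Lgi2* (81.1 ± 30.2 and 73.7 ± 22.7 CPM), with 0 of 4 called by edgeR (1 at an unadjusted p below 0.05, 0 by DESeq2) and none at 0; their part in the *Grm2* value was not tested. In cerebellar Gad2+ IPs, where they were enriched, *Grm2* was 98 ± 14.2 CPM in HD and 120 ± 22.9 in control libraries, -0.33 (SE 0.144) and not called, beside Golgi marker sums of 524 to 717 CPM (median 630) in HD and 525 to 676 (median 618) in control libraries.

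*Grm2* in PV+ IPs was 15.9, 22.9, 18.9, 14.1 and 20.7 CPM in HD, and ran from 22.8 to 33.9 CPM in controls (median 26.2, n = 6). The groups overlapped by 1 HD library, replicate 2. The log2 fold change was -0.56 (SE 0.14) and was not called (edgeR adjusted p = 0.429, lower than all controls in 4 of 5). Granule and Purkinje marker sums reached 664 and 1697 CPM in the highest HD PV+ library and had medians of 80.2 and 110 CPM over the 5 libraries, and their part in the receptor values was not tested. In the remaining cerebral groups *Grm2* lay between -0.28 and -0.23, none called.

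*Grm3*, shared by neurons and astrocytes, had the lowest unadjusted p of the 6 receptors in a cerebral comparison. In cerebral Gad2+ IPs it ran from 7.33 to 12.6 CPM in HD (median 10.3, n = 6) and from 14.4 to 20.2 CPM in controls (median 16.7, n = 6). No HD library reached a control library. The log2 fold change was -0.74 (SE 0.159; edgeR adjusted p = 0.185, lower in 6 of 6), so it was not called, although DESeq2 called it (adjusted p = 0.00604; 0.00604 to 0.276 over the alternatives). The study used DESeq2 and lists *Grm3* among the receptor genes that went down in cerebral Gad2+ neurons. The sum of the striatal neuron markers was 5704 to 7367 CPM (median 6570) in control and 3429 to 5251 (median 4544) in HD libraries, led by *Ppp1r1b* (2306 ± 338 and 1567 ± 402 CPM), with 0 of 9 called by edgeR (8 at an unadjusted p below 0.05, 4 by DESeq2), a median of -0.56 and none at 0. Astrocyte sums overlapped, at 337 to 1242 and 314 to 790 CPM, and neither list's part in the *Grm3* value was tested. In the other cerebral classes *Grm3* was at -0.26 (PV+), -0.59 (SST+) and -0.27 (vGluT2+), none called, and in cerebral total RNA it was at -0.26, which the GC covariate made -0.38 (edgeR adjusted p = 0.0359; 0.0359 to 0.858 over the alternatives).

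*Grm5* in cerebral Gad2+ IPs ran from 61.5 to 155 CPM in HD (median 79.2, n = 6) and from 96.3 to 223 CPM in controls (median 180, n = 6). Of the 6 HD libraries, 4 lay below all controls and 2 among them. The log2 fold change was -0.76 (SE 0.28) and was not called (edgeR adjusted p = 0.536), and with the GC covariate it was -0.26. In cerebral vGluT2+ IPs it was -0.58, in PV+ -0.17 and in SST+ IPs -0.22, none called, with the groups overlapping throughout. *Grm7* and *Grm8*, the release-site receptors, were between -0.42 and -0.03 in the 4 cerebral classes, none called. In cerebral total RNA *Grm5*, *Grm7* and *Grm8* were at 0.33, 0.20 and 0.21, none called, and *Grm5* spread from 7.1 to 150 CPM in control and from 13.2 to 158 CPM in HD libraries. In the cerebellar IPs *Grm3*, *Grm5*, *Grm7* and *Grm8* were between -0.14 and 0.08 in Gad2+ and between -0.84 and -0.46 in vGluT2+ cells, none called. *Grm7* in the vGluT2+ controls was 14.3 CPM in replicate 5 and 2.39, 7.44, 2.93 and 4.24 CPM in the others. The HD libraries of that class had 1.13 to 6.3 CPM.

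In total RNA of the cerebellum 4 further receptors passed the threshold, each with a weaker hold than *Grm4*. *Grm3* ran from 5.81 to 11.4 CPM in HD (median 8.45, n = 7) and from 11 to 16.5 CPM in control libraries (median 15.2, n = 7). Of the HD libraries 6 lay below all controls, and the log2 fold change was -0.78 (SE 0.167; edgeR adjusted p = 0.0238). *Grm8* ran from 2.15 to 6.59 CPM (median 2.97) in HD and from 4.02 to 9.22 CPM (median 7.84) in control libraries, with 5 of 7 HD libraries below all controls and a log2 fold change of -1.06 (SE 0.265; edgeR adjusted p = 0.027). Both genes were lower in cerebellar vGluT2+ IPs than in this total RNA, as given above.

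*Grm7* ran from 10.6 to 16.1 CPM (median 12) in HD and from 13.2 to 23.7 CPM (median 16.2) in control libraries of cerebellar total RNA, with 5 of 7 HD libraries below all controls and a log2 fold change of -0.40 (SE 0.141; edgeR adjusted p = 0.0492). *Grm5* ran from 2.03 to 9.4 CPM (median 3.18) in HD and from 3.16 to 32.5 CPM (median 8.05) in control libraries, with 3 of 7 HD libraries below all controls and a log2 fold change of -1.47 (SE 0.517; edgeR adjusted p = 0.049). The high end of the control range was 1 library, vGluT2-line replicate 4, without which the value was -0.94 and not called (edgeR adjusted p = 0.0983). *Grm2* did not differ beyond its spread, at 34.5 ± 5.79 CPM in HD and 35.8 ± 5.95 in control libraries (-0.06, edgeR adjusted p = 0.761, 0 of 7 HD libraries below all controls).

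These 4 calls depended on single libraries. *Grm3* was not called without control vGluT2-line replicates 1 to 4 (edgeR adjusted p = 0.0604, 0.0524, 0.0516 and 0.053), HD Gad2-line replicate 2 (0.0546) or HD vGluT2-line replicates 2 to 4 (0.0554, 0.0578 and 0.058). *Grm8* was not called without the same 8 libraries (0.0624, 0.0614, 0.0516, 0.0597, 0.0604, 0.0623, 0.0638 and 0.063) or control Gad2-line replicate 2 (0.0507). *Grm5* kept its call in 3 of 14 refits, without control Gad2-line replicates 1 and 3 (0.0221 and 0.0312) or HD Gad2-line replicate 3 (0.00462), and *Grm7* in 2, without control Gad2-line replicate 3 (0.025) or HD Gad2-line replicate 3 (0.0107). Each of these genes was lower in HD in all 14 refits. The remaining refits gave *Grm5* 0.102 (without control Gad2-line replicate 2), 0.0822, 0.0771, 0.0577 and 0.0983 (control vGluT2-line 1 to 4), 0.0654 and 0.0913 (HD Gad2-line 1 and 2), and 0.101, 0.0939, 0.108 and 0.0978 (HD vGluT2-line 1 to 4). In the same order *Grm7* had 0.0959, 0.0795, 0.0818, 0.0602, 0.11, 0.0773, 0.0919, 0.0865, 0.0934, 0.0903 and 0.0746, and 0.0525 without control Gad2-line replicate 1. The count of all genes called, 3704, was itself 415, 108, 106, 128, 165, 118, 1484, 125, 128 and 92 without control Gad2-line 2, control vGluT2-line 1 to 4, HD Gad2-line 2 and HD vGluT2-line 1 to 4, and 7456 without HD Gad2-line 3.

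The Cre lines were also fitted alone, after seeing the data, and the difference between lines was not tested. In the vGluT2 line alone the log2 fold changes were -2.30 for *Grm5*, -0.96 for *Grm3*, -1.47 for *Grm8* and -0.52 for *Grm7*, all called among 7565 genes. Without control replicate 4 of that line, *Grm5* was at -1.46 (edgeR adjusted p = 0.00404). *Grm5*, *Grm3* and *Grm8* were called in 8 of 8 refits that left out 1 library of the line, and *Grm7* in 4, not without control replicate 4 (-0.35, edgeR adjusted p = 0.0898) or HD replicates 1 to 3 (0.0625, 0.0724 and 0.0617). In the Gad2 line alone they were -0.36, -0.55, -0.50 and -0.27, with 0 genes called by edgeR and 315 at an unadjusted p below 0.05, and *Grm5* was at 0.28 without control replicate 2 of that line; DESeq2 was not run on this fit. For *Grm5*, vGluT2-line controls had 10.3, 8.05, 5.1 and 32.5 CPM and HD libraries 2.3, 3.77, 2.33 and 3.18 CPM. They did not overlap, whereas the Gad2-line controls (3.16, 11.4 and 5.43 CPM) and HD libraries (4.1, 2.03 and 9.4 CPM) did. Astrocyte markers, which bear on *Grm3*, summed to 4790 to 5884 CPM (median 5322) in control and 4347 to 5346 (median 4845) in HD total RNA of the cerebellum, with 3 of 9 called lower and a median of -0.09; their part was not tested.

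A property of the libraries moved with several of these values. The GC balance of a library was taken as the median log2 level of the fifth of genes with the lowest GC content (44% or less) minus that of the fifth with the highest (55.8% or more), 2959 genes each and the receptors left out. Since several libraries came from 1 mouse, group means were removed and the rest was averaged to 1 value for each of the 45 mice. *Grm5* had r = 0.96 (rho = 0.94), *Grm8* r = 0.84 (0.83), *Grm7* r = 0.77 (0.71) and *Grm3* r = 0.65 (0.59) with the balance, while *Grm2* and *Grm4* had r = -0.67 (-0.66) and r = -0.66 (-0.68). Without the 2 mice farthest from the median, r was 0.95, 0.78, 0.72, 0.58, -0.62 and -0.62. The permutation p, within genotype and Cre line, was 1e-05 for r and for rho, the smallest 100000 permutations can give, except for *Grm3* (2e-05 for r, 0.00013 for rho) and for rho of *Grm4* (2e-05). The balance comes from the same counts as the receptor levels, so the 2 values of a mouse share libraries and base composition.

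In the cerebrum the balance went with the preparation, although the ranges overlapped. Control total RNA had -2.52 to 0.33 (median -1.10, n = 9), against control IP medians of 0.15 (Gad2+), 0.12 (PV+), 0.14 (SST+) and 0.19 (vGluT2+). HD total RNA had a median of -0.71, against -0.67, 0.05, 0.14 and -0.29 in the same order. The balance also differed by genotype in some groups. In cerebellar total RNA of the vGluT2 line it was -0.19 to 0.59 in control (median 0.39, n = 4) and -1.52 to -0.89 in HD libraries (median -1.22, n = 4), which did not overlap. In the Gad2 line it was -0.77 to 0.33 and -1.36 to 0.45, which overlapped. With the balance as a covariate, added after seeing the data, only *Grm4* of the 5 receptors kept its call in cerebellar total RNA (-1.07, edgeR adjusted p = 0.00149; 8.94e-07 to 1 over the alternatives), and *Grm5*, *Grm3*, *Grm8* and *Grm7* were at -0.15, -0.50, -0.57 and -0.17. In cerebral Gad2+ IPs the balance was -0.55 to 0.27 in control (median 0.15) and -1.03 to 0.13 in HD libraries (median -0.67). In the cerebellar IPs it overlapped: 0.04 to 0.68 and -0.60 to 0.63 in vGluT2+, and -0.47 to 0.36 and -0.86 to 0.47 in Gad2+ IPs.

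**Figure D3:**
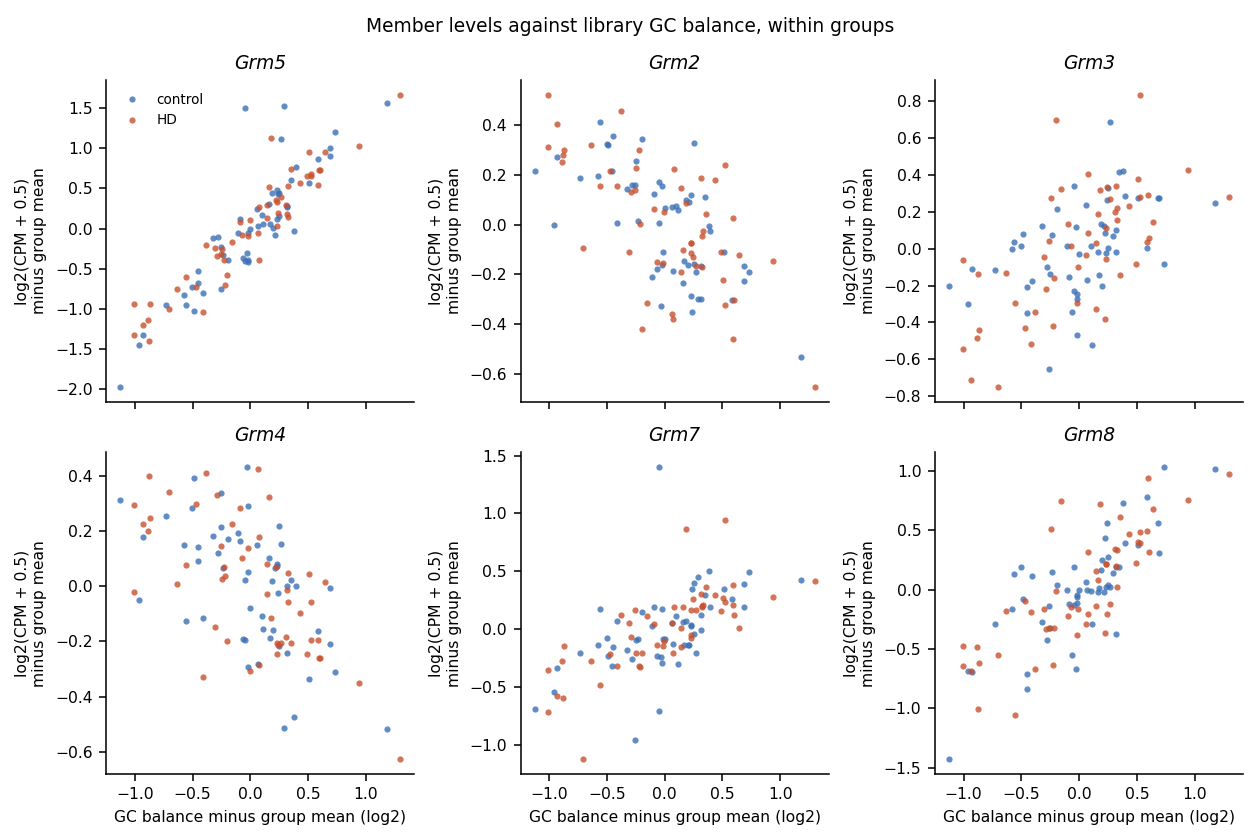
Level of each receptor gene against the GC balance of the library, both as log2 values with group means removed, 1 point per library (n = 106). Several points can come from 1 mouse. *Grm5* is higher at a higher balance, whereas *Grm2* and *Grm4* go the other way.

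Other genes of the receptors' pathways were followed as lists. They were Homer and other postsynaptic scaffold proteins (9 genes, *Shank2* and *Dlgap1* among them), the Gq pathway (10) and the Gi/o pathway (14). The others were trans-synaptic and PDZ partners of group III receptors (8) and enzymes and transporters of glutamate and N-acetylaspartylglutamate (10). These lists held no gene called by edgeR for HD in any of the 6 IP comparisons. At an unadjusted p below 0.05 there were 9, 6, 3 and 12 list genes in cerebral Gad2+, PV+, SST+ and vGluT2+ IPs and 4 and 7 in cerebellar Gad2+ and vGluT2+ IPs, of 51 each, and DESeq2 called 1, 1, 0, 0, 0 and 0. Over all genes the same cut held 1319 of 14342, 619 of 14713, 216 of 14689, 1092 of 14354, 340 of 14098 and 2082 of 13487. In cerebellar total RNA, where 25.6% of all genes were called, the Gq list had 1 gene higher and 4 lower, with a median of -0.37 against about 0 for all genes. The 4 with the largest values were *Plcb4* (-1.32), *Plcb1* (-1.17) and *Itpr1* (-0.93), which act below group I receptors, and *Gna11* (0.56). The scaffold list had 1 higher and 2 lower (median -0.14), the Gi/o list 2 and 2 (-0.04), the partner list 1 and 1 (0.09), and the glutamate supply list 0 and 3 (-0.28), the last being *Slc7a11* (-1.12), *Slc1a2* (-0.88) and *Folh1* (-0.69). None of these 17 calls held with the GC covariate, with the replicate block or in the Gad2 line alone. In cerebral total RNA the Gi/o list had 1 lower gene, *Adcy5* (-0.44), not called with DESeq2 size factors, upper-quartile factors or no filter.

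Over all genes, 67.3% were called between cerebellar Gad2+ IPs and total RNA, 69.9% between vGluT2+ IPs and total RNA and 58% between the 2 classes, so the counts of list genes called say little by themselves. Of the 10 Gq genes 9 were higher and 1 lower in cerebellar Gad2+ IPs than in total RNA (median 1.27, against 0.01 for all genes), led by *Itpr1* at 2.38, and 1 was higher and 7 lower in vGluT2+ IPs (median -0.74, against 0.06). Between the cerebellar classes, 8 of 10 were lower in vGluT2+ IPs (median -2.23, against 0.02). *Grm5*, the member that uses this pathway, was low in both cerebellar classes, as given above. The Gi/o list was split, 7 higher and 4 lower in cerebellar vGluT2+ IPs (median 0.22) and 6 and 4 in Gad2+ IPs (0.06). The glutamate supply list had 2 higher and 7 lower in cerebellar vGluT2+ IPs (median -2.14). Its genes *Slc1a2* and *Slc1a3* are also astrocyte markers, which were lower in the same IPs, as given above. The part of astrocyte RNA in that median was not tested. *Elfn1*, which recruits group III receptors across the synapse, was higher in SST+ IPs (1.65) and lower in cerebral vGluT2+ IPs (-1.85) than in total RNA.

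The genes whose pattern was most like each receptor's were found among 14571 protein-coding genes over 8 control groups, the 6 IPs and the total RNA of both regions. The measure was the root mean square (RMS) difference of mean log2 levels after each gene's own mean was removed. For *Grm5* they were *Scn3a* (0.343) and *Stxbp6* (0.349), for *Grm2* *Dyrk3* (0.339) and *Hspb3* (0.34), and for *Grm3* *St6gal1* (0.273) and *Gpc5* (0.278). For *Grm4* they were *Ldoc1* (0.257) and *Btg1* (0.272), for *Grm7* *Efna5* (0.198) and *Slc35f1* (0.213), and for *Grm8* *Akap2* (0.234) and *Cntn3* (0.237). With Pearson correlation as the measure, *Ldoc1*, *Efna5* and *Cntn3* were again among the 2 genes for their receptor. *Grm7* had the closest RMS neighbours and *Grm5* the most distant ones.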

How the data were processed

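The authors deposited estimated counts per gene, made with STAR and Salmon on GRCm38 plus spike-in sequences; 8.57% of the values were not whole and were rounded. The 92 ERCC spike-ins (at most 4.45% of a library) were left out. Symbols, coordinates and exon lengths came from GENCODE M21. The members and lists were chosen with earlier results of these data known. Tests used protein-coding genes with a mean count of at least 10 in the libraries compared, in edgeR 4.0.16 (TMM, quasi-likelihood; R 4.3.3), with BH adjustment over all genes tested and calls at 0.05. Levels are CPM with TMM factors over all 106 libraries. Total RNA fits held the Cre line, and IP against total RNA fits the genotype, as terms. Several libraries came from the same mouse, across regions and between IP and total RNA, so these comparisons were also run with the mouse as a block. For HD against control, the replicate block used the replicate number of the libraries, which is not known to pair them. Alternatives were DESeq2 1.42.0, other factors, filters and gene types, the replicate block, each library left out, the 3 re-sequenced libraries left out and other sample sets; the GC covariate, the fits of each Cre line alone (with and without each library) and the correlations per mouse were chosen after seeing the data. The fits were tested on simulated data. All 6 members were named throughout, with at most 4 genes per list, those called with the largest change, and the 2 genes of most alike pattern per member. Python 3.11.15 and matplotlib 3.10.9 made tables and plots. Some genes are not reported here.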

Additional observations from a re-analysis of the deposited data

Results flagged for a closer look

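Among 90 sets of values, 6 receptors in each of 15 groups of 4 to 6 libraries, 8 had a value far from the others; chance flags about 1 in 20 sets. In cerebellar Gad2+ control replicate 5, *Grm5* was 21.5 CPM (others 4.72 to 10.9) and *Grm3* 19.8 CPM (others 8.6 to 12.4). *Grm7* was 62.6 CPM in cerebral Gad2+ control replicate 2 (others 44.1 to 50.1), and *Grm3* was 21.4 CPM in PV+ control replicate 1 (others 15 to 17). *Grm5* was 78.8 CPM in SST-line control total RNA replicate 4 (others 32.7 to 39.4) and 29 CPM in cerebellar vGluT2+ control replicate 5 (others 5.71 to 9.71). The low values were *Grm3* at 12.4 CPM in cerebellar vGluT2-line control total RNA replicate 2 (others 15.9 to 16.5) and *Grm7* at 31.5 CPM in SST+ HD replicate 4 (others 52.9 to 54.6).

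The HD effect on *Grm4* differed between regions in vGluT2+ cells, by 1.15 on the log2 scale as cerebrum minus cerebellum, in the test of that difference.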

How the results depend on the processing

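Of 1704 log2 fold changes compared with the reported ones, 1558 kept their direction and their side of the threshold; the cause of the other results was not tested. The GC covariate reversed *Grm7* for HD in cerebellar Gad2+ IPs (-0.03), *Grm5* (-0.22) and *Grm8* (-0.13) in cerebral total RNA, *Grm5* in PV+ (-0.52), SST+ (-0.28), cerebral vGluT2+ (-0.08) and cerebellar vGluT2+ IPs (-0.07) against total RNA, *Grm4* (0.15) and *Grm7* (-0.15) in PV+ IPs, *Grm3* in cerebellar Gad2+ IPs (-0.09), *Grm5* between cerebellar classes (-0.05), and the difference of HD effects between regions for *Grm2* in Gad2+ (-0.12) and *Grm5* in vGluT2+ cells (0.20). The replicate block reversed *Grm7* (-0.03) and *Grm8* (-0.05) in cerebellar Gad2+ IPs, and the mouse as a block *Grm4* in SST+ IPs (-0.04). Leaving out the re-sequenced libraries reversed *Grm7* and *Grm8* in cerebellar Gad2+ IPs (-0.03 each), the vGluT2 line alone *Grm2* in cerebellar total RNA (0.15), control libraries alone *Grm5* (-0.08) and *Grm3* (-0.23) in cerebellar Gad2+ IPs against total RNA, and the 2 groups alone *Grm3* between PV+ and cerebral Gad2+ IPs (-0.01). Leaving out 1 library at a time spanned 0 for *Grm7* in PV+ (-0.11 to 0.06), *Grm5* in SST+ (-0.38 to 0.05), *Grm5* (-0.07 to 0.40), *Grm3* (-0.22 to 0.04), *Grm7* (-0.03 to 0.14) and *Grm8* (-0.03 to 0.13) in cerebellar Gad2+, and *Grm5* in cerebellar vGluT2+ IPs (-0.78 to 0.19).

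Receptors called for HD went from 0 to 1 in cerebral Gad2+ IPs with DESeq2 and in cerebral total RNA with the GC covariate. In cerebellar Gad2+ IPs 1 became 0 with DESeq2 size factors, upper-quartile factors, filterByExpr, all gene types, the replicate block or the re-sequenced libraries left out. In cerebellar vGluT2+ IPs 1 became 2 with DESeq2, the covariate or all IP groups in 1 fit. In cerebellar total RNA 5 became 4 with upper-quartile factors and 3 with no filter or all gene types. It became 1 with the covariate, and 0 with the replicate block or the Gad2 line alone. Against total RNA, 6 became 3 in cerebral Gad2+ IPs with same-line total RNA, and 5 became 3 in SST+ IPs with control libraries alone. Between PV+ and SST+ IPs 1 became 2 with those groups alone, and for the difference between regions in Gad2+ cells 0 became 1 with DESeq2. Leaving out 1 library gave 0 to 1 in cerebellar Gad2+ IPs, 1 to 2 in cerebellar vGluT2+ IPs, 1 to 5 in cerebellar total RNA and 0 in the other HD comparisons. Under the alternatives, refits without 1 library apart, the median HD value of the 6 receptors stayed negative. It moved by over 1.5 times in PV+ IPs (-0.20, to -0.39 with the replicate block and -0.31 with the re-sequenced libraries left out), cerebral vGluT2+ IPs (-0.27, to -0.11 with the covariate), cerebellar Gad2+ IPs (-0.05, from -0.11 to -0.02), cerebral total RNA (-0.03, to -0.19 with the covariate, -0.08 with SST-line libraries added and -0.05 with upper-quartile factors) and cerebellar total RNA (-0.82, to -0.42 with the covariate and -0.43 in the Gad2 line alone).

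All genes called for HD moved by over 1.5 times as follows. Cerebral Gad2+ IPs had 4, and 75 with DESeq2, 17 with the covariate, 9 with the replicate block and 25 in 1 fit (3 to 20 without 1 library). PV+ IPs had 6, and 42, 16, 0 and 0 under these, 1 with upper-quartile factors (0 to 4). SST+ IPs had 0, and 2 with DESeq2 (0 to 1). With BR control mice alone they also had 0. Cerebral vGluT2+ IPs had 0, and 25 with DESeq2, 1 with no filter, 5 with the covariate, 1 with the re-sequenced libraries left out and 4 in 1 fit (0 to 1). Cerebellar Gad2+ IPs had 2, and 22 with DESeq2, 1 with its size factors, upper-quartile factors or filterByExpr, 0 with all gene types, the replicate block or the re-sequenced libraries left out, and 11 in 1 fit (0 to 3). Cerebellar vGluT2+ IPs had 282, and 665 with DESeq2, 598 with the covariate, 109 with the replicate block and 521 in 1 fit (154 to 275). Cerebral total RNA had 32, and 119 with DESeq2, 9 with upper-quartile factors, 347 with the covariate, 17 with the replicate block and 97 with SST-line libraries added (8 to 49). Cerebellar total RNA had 3704, and 119 with the covariate, 9 with the replicate block, 0 in the Gad2 and 7565 in the vGluT2 line alone (92 to 7456). Cerebral vGluT2+ IPs against total RNA had 9469, and 6098 with the mouse as a block. Differences of HD effects had 0, and 1 with DESeq2 (cerebral classes); 15, and 73 with DESeq2 and 64 with the covariate (cerebellar classes); 0, and 21 and 4 (regions, Gad2+); and 45, and 126, 152 and 68 with the re-sequenced libraries left out (regions, vGluT2+). The lowest counts of *Grm3* (24) and *Grm7* (44) were in cerebellar vGluT2+ IPs, and that of *Grm8* (30) was in PV-line total RNA. For levels per length, 23 of 48 values and 14 of 48 ranks moved with the longest transcript as length.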
